A study of Mus musculus with 13 samples.

Results

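Collagens, laminins, integrins, matrix metalloproteinases (MMPs) and their tissue inhibitors (TIMPs) were taken from the table of 4T1-Thy1.1 cells by gene symbol. Of 13222 genes listed, 67 symbols began with Col, Lam, Itg, Mmp or Timp followed by the number and letter of a chain or enzyme. Among them Col4a3bp, Itgb1bp1 and Itgb3bp name proteins outside these families and were set apart, which left 64 genes. These were 27 collagen chains, 8 laminin chains, 16 integrin chains, 10 MMPs and 3 TIMPs. A filter on low read numbers kept 12319 genes for testing, among them 59 of the 64. The chains Col22a1, Col27a1, Col2a1, Col6a5 and Itga4 did not pass it, and none of them was above 3.08 in any library.

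Basement membranes are thin sheets under epithelia, built from laminin trimers and a network of type IV collagen. Epithelial cells hold on to them through integrins, which are pairs of an alpha and a beta chain and which bind laminin, collagen or fibronectin outside the cell and the cytoskeleton inside it. MMPs cut these matrix proteins, TIMPs block MMPs, and carcinoma cells are known to make members of all of these families themselves.

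The cells come from 4T1, an established BALB/c mouse mammary carcinoma line, used here as the single line 4T1-Thy1.1 carrying a Thy1.1 transgene. The labels name DMEM/F12 with serum as the medium, whereas the study's methods name RPMI medium for 4T1 cells, and the agents were present for 48 hours before RNA was taken. The 4 conditions were no treatment (control, n = 3, replicates 1, 3 and 5), 200 ng/mL doxorubicin (DOX, n = 4, replicates 1 to 4), 200 ng/mL DOX with 25 ng/mL recombinant mouse IL-17A (DOX+IL-17A, n = 3, replicates 2, 3 and 5) and the same dose of IL-17A without DOX (IL-17A, n = 3, replicates 2, 3 and 5). DOX damages DNA through topoisomerase II, and IL-17A is a cytokine of T cells that signals through NF-kB and AP-1 factors. Nothing in the labels says that the replicates were separate cultures, so p-values measure the spread between these libraries.

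Reads came from the 3' ends of transcripts, so levels were not divided by transcript length. A level is the authors' TMM-normalized value, which is on the scale of CPM, and levels below are listed in the order of replicate number. The libraries held between 4445592 and 16930600 reads, so that 3 reads, taken as the smallest detectable number, equal 0.183 to 0.613 units. This limit covers counting error only. Serpinh1 and Ppib, which cells that make collagen use for folding it, stayed at or below 4.23 and 3.72 in every library, so a low value in this table was not read as absence of the transcript.

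Epithelial origin was checked with 14 marker genes, all of them listed, whose summed level was 2288 to 2612 in control libraries, 2023 to 2409 with IL-17A, 1280.2 to 1402 with DOX and 1102 to 1378 with DOX+IL-17A. Of 12 fibroblast markers, 7 were not listed, among them Pdgfrb, Lum and Fap, and none of 7 endothelial markers was listed. Control replicate 1 stood apart from the other control libraries. It held the highest levels of Col1a1, Col1a2, Col3a1, Itga6 and Timp2 and the lowest level of Mmp9 of all 13 libraries. In DOX replicate 1 the sum of 19 muscle marker genes was 537, against 123 to 234 in the other 12 libraries, and that of 4 red blood cell genes was 68.4, against 0.328 to 14.4. The sum of 5 listed immune cell markers, of 12, was 27.5 to 71.1 with DOX, highest in replicate 1, against 20.1 to 20.9 in control, 19.5 to 25.7 with DOX+IL-17A and 12.0 to 15.7 with IL-17A, and its part in the results was not tested. Results that rest on either library are given with and without it. In bulk RNA, fewer cells of a kind and less RNA per cell cannot be told apart.

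With DOX, the collagens Col8a1, Col18a1, Col5a1, Col16a1 and Col4a5, the laminins Lama5 and Lamb2 and the integrins Itga3 and Itgb4 fell. The collagens Col17a1, Col14a1 and Col4a3, the laminin Lama2 and the protease Mmp1b rose, each with a mean under 10 over all libraries. These genes passed the filter on low read numbers through libraries with DOX, so their rises are a description and not a test. A gene was called at a Benjamini-Hochberg adjusted p under 0.05 in limma, over all 12319 genes, together with a fold change above 2. Against control, DOX raised 5 of the 59 tested members and lowered 9, and 45 did not pass. For all genes the shares called were 9.15% up and 6.18% down. The share of members that rose (5 of 59) was close to that background. The median log2 fold change was -0.09 over the 59 members and 0.09 over all genes. With DOX+IL-17A against control, 6 members rose and 8 fell, where 6.95% of all genes rose and 5.95% fell, and the median was 0.19 over the members and 0.04 over all genes. On recovered reads DOX raised 1 member and lowered 9 with voom, 2 and 11 with edgeR and 4 and 11 with DESeq2, and among genes averaging 10 reads or more it raised 2 and lowered 9. For DOX+IL-17A the counts were 6 and 8 with voom, 4 and 8 with edgeR and 7 and 11 with DESeq2. Both comparisons use the same control libraries. Called in both were 8 members, Col17a1 upwards and Col18a1, Col4a5, Col5a1, Col8a1, Itgb4, Lama5 and Lamb2 downwards.

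The counts were also taken by level, with a limit at a mean of 10 over the 13 libraries that was chosen after the values were seen. Of the 32 tested members at or above it, DOX lowered 9 and raised none, where 6.99% of all genes at such levels fell and 9.15% rose. Of the 27 members below it, DOX raised 5 and lowered none, where 9.08% of genes rose and 4.54% fell. With DOX+IL-17A, 8 of the 32 abundant members fell and 3 rose, against 6.56% and 7.14% of all such genes, and 3 of the 27 scarce members rose and none fell, against 6.58% and 4.68%. A scarce member can pass the filter through the treated libraries alone and has little room to fall on the log2(value + 1) scale, so these counts are given as a description. At the adjusted p alone, without the fold limit, DOX lowered 12 members and raised 5 (9.71% and 12.4% of all genes), and DOX+IL-17A lowered 14 and raised 6 (8.34% and 9.37%).

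Scaling mattered for these splits. When libraries were scaled by their size only, in place of TMM, the median of all genes in DOX against control moved from 0.09 to 0.24, and DOX raised 6 members and lowered 4, where 1516 of 12319 genes rose and 488 fell. For DOX+IL-17A against control the same scaling moved the median from 0.04 to 0.20 and gave 8 up and 4 down, where 1227 genes rose and 517 fell. Calls lost under it were those of Col5a1, Col16a1, Col4a5, Lamb2 and Itgb4 with DOX and of Col5a1, Col4a5, Lamb2 and Mmp14 with DOX+IL-17A, and none of these genes changed sign. Of the genes outside the families named below, Itgav, Cd151, Plec, Dst, Tns4, Htra1, Furin, Npnt, Itgb3bp and Col4a3bp lost their calls with DOX under it. Without control replicate 1, DOX raised 2 members and lowered 9, and DOX+IL-17A raised 9 and lowered 8. With both control replicate 1 and DOX replicate 1 left out, an alternative added after the data were seen, DOX raised 4 and lowered 9, and DOX+IL-17A raised 8 and lowered 7.

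Among collagens, 5 of 23 tested chains fell with DOX, 3 rose and 15 did not pass, where 6.18% of all genes fell and 9.15% rose. Col8a1 encodes a short-chain collagen of cell sheets and vessel walls and lies on the minus strand of chromosome 16 at chr16:57624258-57754737 (mm10). It stood at 329, 332 and 280.4 in control libraries, at 467, 482 and 399 with IL-17A, at 124, 119.7, 85.1 and 85.8 with DOX, and at 157, 139 and 103 with DOX+IL-17A. Every library with DOX was below every library without it. The log2 fold change was -1.61 ± 0.20 (SE, adjusted p = 0.000116) with DOX and -1.25 ± 0.22 (adjusted p = 0.00155) with DOX+IL-17A.

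Col18a1 is a basement membrane collagen whose end fragment is known as endostatin (chr10:77052178-77166548, minus strand). Its level was 125, 108 and 135 in control, 104, 112 and 189.8 with IL-17A, 45.4, 52.8, 41.1 and 54.1 with DOX, and 44.4, 48.3 and 54.9 with DOX+IL-17A. Again the libraries with DOX lay below all those without it, by a log2 fold change of -1.33 ± 0.22 (adjusted p = 0.0009) for DOX against control and -1.3 ± 0.24 (adjusted p = 0.00211) for DOX+IL-17A against control. Col8a1 and Col18a1 were called down in each of these comparisons under every setting and every left-out library that was run.

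Col5a1, a chain of the minor collagen that sets the width of fibrils, was 79.7, 95.3 and 86.6 in control, 34.9, 41.6, 44.2 and 39.1 with DOX, and 37.2, 43.9 and 45.1 with DOX+IL-17A. Its log2 fold change with DOX was -1.11 ± 0.22 (adjusted p = 0.00274), and the libraries did not overlap. The IL-17A libraries spread from 45.6 to 86.1 and reached almost down to the DOX range. With DOX+IL-17A the call (-1.03, adjusted p = 0.00775) was lost without control replicate 3 or without DOX+IL-17A replicate 2, where the log2 fold change was at smallest -0.95.

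Col16a1, a collagen attached to the surface of fibrils, was 46.2, 96.4 and 104 in control and 45.3, 35.03, 27.0 and 35.4 with DOX. Control replicate 1 lay next to the highest DOX library, and the fall was -1.12 ± 0.28 (adjusted p = 0.0101) with it and -1.48 (adjusted p = 0.000392) without it. The call was lost without control replicate 3, control replicate 5 or DOX replicate 3, the smallest change being -0.91 and the highest adjusted p 0.0573. Col4a5, a type IV chain on chromosome X, fell from 17.4 ± 2.06 (SD, n = 3) in control to 7.58 ± 2.39 (n = 4) with DOX, which is -1.14 ± 0.34 on the log2 scale (adjusted p = 0.0271). Its calls were the least firm of the 5, lost without control replicate 3 or 5 or DOX replicate 3 or 4 (adjusted p up to 0.0792), and with DOX+IL-17A kept only when control replicate 1 or DOX+IL-17A replicate 2 was the one left out (adjusted p up to 0.174 otherwise).

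The paired genes Col4a1 and Col4a2 encode the 2 main chains of type IV collagen and sit head to head on chromosome 8, their annotated first exons overlapping at chr8:11312805-11312826. Col4a1 was 179.5 ± 27.6 (SD, n = 3) in control, 159 ± 21.3 with IL-17A, 111 ± 11.6 (n = 4) with DOX and 119 ± 14.0 with DOX+IL-17A. Col4a2 was 91.4 ± 8.08, 93.2 ± 7.51, 64.4 ± 11.1 and 66.2 ± 3.42 in the same order. All DOX libraries of both genes were below all control libraries. Col4a1 passed the adjusted p (log2 fold change -0.68 ± 0.18, adjusted p = 0.015) but not the fold limit, and Col4a2 passed neither (-0.51 ± 0.18, adjusted p = 0.0587). Col7a1, the anchoring fibril collagen of epithelia, had a log2 fold change of -0.06 ± 0.39 (adjusted p = 0.925).

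The collagens that rose with DOX were scarce, with 22 to 32 reads in a DOX library for Col17a1, 12 to 23 for Col4a3 and 1 to 29 for Col14a1. Col17a1, a transmembrane collagen of hemidesmosomes, was 0, 1.1 and 0.354 in control, 2.50, 3.50, 4.05 and 1.97 with DOX, and 5.32, 2.88 and 2.31 with DOX+IL-17A. Its log2 fold change was 1.47 ± 0.39 (adjusted p = 0.0153) with DOX and 1.61 ± 0.42 (adjusted p = 0.0164) with DOX+IL-17A. The first call was lost without control replicate 1 (adjusted p = 0.0526), and the second without control replicate 5 or DOX+IL-17A replicate 2 (adjusted p up to 0.0682). No library without DOX except IL-17A replicate 2 (1.80) held more than 1.1. Col17a1 thus passed the filter through libraries with DOX, and both calls are descriptions.

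No read of Col14a1, a fibril-associated collagen, was found in any control or IL-17A library, and DOX libraries held 0.0805, 1.20, 1.68 and 2.59. It passed the low-read filter through libraries with DOX alone, so its call (adjusted p = 0.0439) is a description and not a test. Single libraries decided it, and it was lost without any control or IL-17A library or without DOX replicate 2, 3 or 4 (adjusted p up to 0.128). Col4a3 was 0.222 ± 0.288 in control and 1.52 ± 0.288 with DOX, which is 1.06 ± 0.32 on the log2(value + 1) scale (adjusted p = 0.0273), and lost its call without control replicate 1 or 5 or DOX replicate 1 or 3 (adjusted p up to 0.0875). At most 0.548 in control and 0.410 with IL-17A, Col4a3 too passed the filter through libraries with DOX alone, so this call is likewise a description. With DOX+IL-17A, Col15a1 (2.51 ± 1.44, against 0.343 ± 0.338 in control, adjusted p = 0.0476) and Col10a1 (2.58 ± 0.946 against 0.490 ± 0.750, adjusted p = 0.0415) were called. The call of Col15a1 was lost without control replicate 3 or 5, DOX replicate 2 or 3, DOX+IL-17A replicate 2 or 5 or any IL-17A library (adjusted p up to 0.149). That of Col10a1 was lost without control replicate 3 or 5, DOX replicate 1 or 4, DOX+IL-17A replicate 2 or 5 or IL-17A replicate 2 or 3 (adjusted p up to 0.128). Col15a1 was at most 0.677 in any library without DOX. Col10a1 was at most 0.943 in such libraries apart from control replicate 1 (1.35). Both passed the filter through libraries with DOX, so these calls too are descriptions.

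The fibrillar collagens of types I and III, the main products of fibroblasts, depended on single libraries. Col1a1, Col1a2 and Col3a1 averaged 19.4, 10.3 and 11.7 over the 13 libraries, where the median of all genes was 15.1 to 18.4 per library. Col1a1 was 44.7, 11.1 and 11.6 in control, 9.24, 8.65 and 15.1 with IL-17A, 33.2, 20.4, 20.3 and 8.76 with DOX, and 31.3, 23.5 and 13.9 with DOX+IL-17A. Col1a2 was 37.6, 6.76 and 3.77 in control and 15.1, 6.35, 7.27 and 4.20 with DOX. Col3a1 was 45.2, 4.93 and 4.60 in control, 13.3, 6.46, 9.93 and 4.11 with DOX, and 13.5, 14.0 and 17.8 with DOX+IL-17A. In each of the 3 genes control replicate 1 was the highest library and DOX replicate 1 the highest of its group.

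None of the 3 was called with DOX, with log2 fold changes of 0.05 for Col1a1, -0.42 for Col1a2 and -0.39 for Col3a1 and adjusted p of at least 0.640. Without control replicate 1 these values turned to 0.68, 0.47 and 0.61, still uncalled. Without that library Col3a1 was called higher with DOX+IL-17A (1.47, adjusted p = 0.021, against 0.47 and 0.640 with it). The sum of 5 listed fibroblast markers, which include these 3 collagens, was 143 in control replicate 1 and 48.2 and 50.2 in the other control libraries, and whether other cells had a part in the collagen values was not tested.

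Leaving out DOX replicate 1, the library with muscle and red blood cell transcripts, changed little for the collagens as a family. The DOX mean of Col1a1 went from 20.6 ± 9.97 to 16.5 ± 6.67 (n = 3), that of Col1a2 from 8.22 to 5.94 and that of Col3a1 from 8.44 to 6.83. Of 27 collagens, 1 with reads in other DOX libraries moved by more than 1.5 times, the untested Col2a1 (0.548 with the library and 0.0596 without it), and the only DOX reads of Col22a1 were in that library. All 5 collagens that fell with DOX also fell without it. Col4a3 lost its call (adjusted p = 0.0591), and Col23a1, a transmembrane collagen at 0 in that library and in all control and IL-17A libraries, became called (1.48, adjusted p = 0.015, against 1.11 and 0.0687 with it). Having no read outside the groups with DOX, Col23a1 passed the filter through them alone, and its call is likewise a description.

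**Figure D1:**
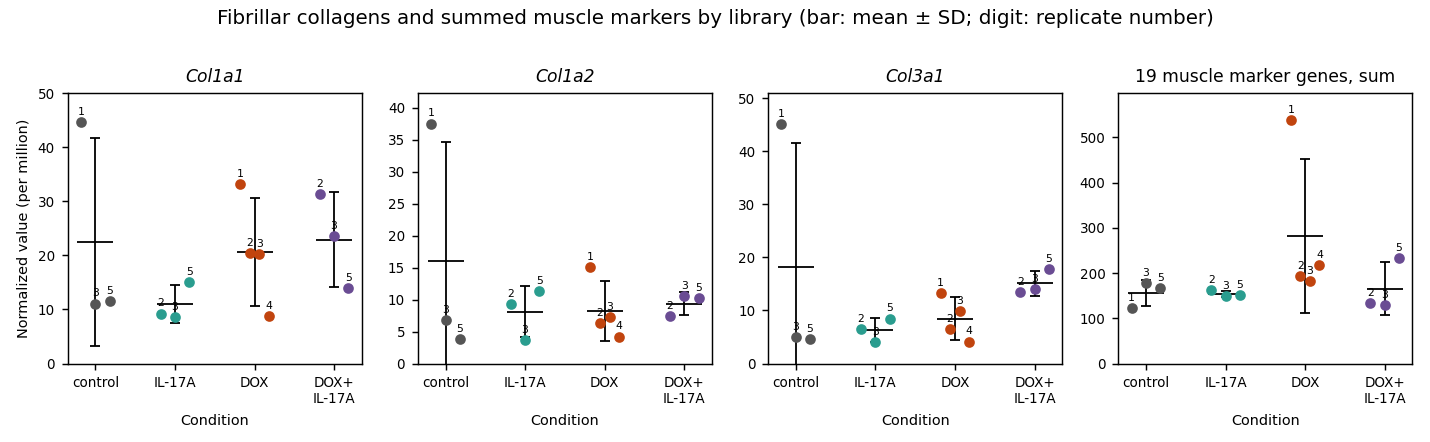
Normalized values (vertical axis, TMM scale) of Col1a1, Col1a2, Col3a1 and the sum of 19 muscle marker genes in each library of the 4 conditions (horizontal axis); points are libraries with their replicate numbers, and bars show mean ± SD (cut off at 0 on the axis). Control replicate 1 is the highest library for the 3 collagens (44.7, 37.6 and 45.2), and DOX replicate 1 the highest for the muscle genes (537).

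Of 31 genes for enzymes and helpers that modify and process collagen chains, 24 were tested, and with DOX 5 fell, 2 rose and 17 did not pass, with a median log2 fold change of -0.23. Over all genes 6.18% fell and 9.15% rose. P4ha1, the catalytic chain of prolyl hydroxylase, fell from 150.3 ± 39.0 to 51.5 ± 10.9 (-1.51 ± 0.25, adjusted p = 0.000956), and P4ha2 fell from 32.7 ± 17.2 to 10.4 ± 2.44 (-1.42, adjusted p = 0.015). Plod1 and Plod2, lysyl hydroxylases needed for stable cross-links, fell to 8.27 ± 1.72 from 34.0 ± 2.07 (-1.93, adjusted p = 0.00276) and to 35.5 ± 2.82 from 101 ± 35.3 (-1.42, adjusted p = 0.00384). Pcolce, an enhancer of procollagen cleavage, fell from 147 ± 64.6 to 44.3 ± 6.84 (-1.63, adjusted p = 0.00487). P4ha3, a rarer prolyl hydroxylase chain, rose from 0.624 ± 0.713 to 7.54 ± 1.04 (2.48, adjusted p = 0.000976). Loxl2, which cross-links collagen, rose from 2.25 ± 2.53 to 6.92 ± 1.35 (1.62, adjusted p = 0.0269), a call lost without control replicate 1 or 5 or DOX replicate 1, 2 or 4 (adjusted p up to 0.112). P4ha2 lost its call without control replicate 5 (adjusted p = 0.0819).

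Laminins fell in some chains and not in others. Of the 8 chains, 2 fell with DOX, 1 rose and 5 did not pass, where 6.18% of all genes fell and 9.15% rose. The median log2 fold change of the 8 chains was -0.50. Lama5, the alpha chain of the laminins found under most adult epithelia (chr2:180176373-180225859, minus strand), was 117, 182 and 151 in control, 140.3, 202 and 109 with IL-17A, 53.8, 70.9, 55.8 and 55.3 with DOX, and 59.5, 74.6 and 44.8 with DOX+IL-17A. The libraries with DOX were all below those without. Its log2 fold change was -1.32 ± 0.24 (adjusted p = 0.00177) with DOX and -1.32 ± 0.26 (adjusted p = 0.00356) with DOX+IL-17A, and both calls held under every setting and left-out library run.

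Lamb2, a beta chain that pairs with Lama5, was 98.8, 48.0 and 62.8 in control, 29.2, 39.8 and 82.7 with IL-17A, and 32.9, 29.9, 32.0 and 31.1 with DOX. The DOX range was narrow and below all controls, whereas 1 IL-17A library was lower still. It was called at -1.06 ± 0.31 (adjusted p = 0.0233) with DOX and at the same -1.06 ± 0.33 (adjusted p = 0.0375) with DOX+IL-17A. Without control replicate 1 the log2 fold change with DOX was -0.78 (adjusted p = 0.078), and the call was also lost without control replicate 5 or DOX replicate 2, 3 or 4. With DOX+IL-17A it was lost without any library of that condition, control replicate 1 or 5, or DOX replicate 1, 3 or 4 (adjusted p up to 0.111). Lamc1, the gamma chain of the same laminins, was 106, 175 and 131 in control and 73.6, 83.2, 57.6 and 59.3 with DOX, and passed the adjusted p (0.00851) at a log2 fold change of -0.98 ± 0.23, just under the fold limit, which it passed without control replicate 1 (-1.15) or DOX replicate 1 or 2.

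Lamb1, the most abundant laminin chain in this table, was 361, 519 and 564 in control and 343, 364, 363 and 391 with DOX, overlapping ranges with a log2 fold change of -0.37 ± 0.21 (adjusted p = 0.217). Lama3 and Lamb3, chains of the laminin of hemidesmosomes, were not called, at -0.13 ± 0.30 and 0.34 ± 0.31 (adjusted p = 0.793 and 0.441). Lama2, an alpha chain of muscle basement membrane, was listed at 0.508, 0 and 0 in control (3 reads in all) and at 1.69, 1.86, 1.96 and 1.16 with DOX (65 reads). The ratio of reads per depth was 16.7 (95% exact interval 5.48 to 83.3, counting error only), with an adjusted p of 0.026. With no read in any IL-17A library, Lama2 passed the low-read filter through libraries with DOX alone. Its call is therefore a description and not a test. The muscle marker sum was highest in DOX replicate 1 and was 182 to 217 in the other DOX libraries, against 123 to 178 in control. Lama2 was as high without DOX replicate 1 (1.20 on the log2 scale, adjusted p = 0.0497, against 1.21 with it), and the call was lost without control replicate 3 or 5 or DOX replicate 2 or 3 (adjusted p up to 0.0886).

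Among 15 tested integrin chains 2 fell with DOX, none rose and 13 did not pass, where 6.18% of all genes fell and 9.15% rose. The 2 that fell were Itga3 and Itgb4. Itga3 forms a laminin receptor with Itgb1 and lies at chr11:95044474-95076801 on the minus strand. It was 443, 270.4 and 278 in control, 197, 249 and 445 with IL-17A, 141, 124, 118 and 105 with DOX, and 211, 186 and 132 with DOX+IL-17A. All 4 DOX libraries were below every library without DOX, whereas the DOX+IL-17A range met the lowest IL-17A library. The log2 fold change was -1.40 ± 0.27 (adjusted p = 0.00234) with DOX, called under every setting and left-out library run. With DOX+IL-17A it was -0.89 ± 0.29 (adjusted p = 0.0442), which reached the fold limit only without control replicate 3 (-1.03). DOX+IL-17A set directly against DOX gave 0.51 ± 0.27 (adjusted p = 0.896).

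Itgb4, the beta chain of the hemidesmosome integrin, was 79.8, 105 and 74.6 in control, 72.7, 93.5 and 86.7 with IL-17A, 40.2, 50.7, 38.7 and 38.5 with DOX, and 24.1, 29.1 and 43.9 with DOX+IL-17A. No library with DOX reached the lowest library without it. The fall was -1.42 ± 0.24 (adjusted p = 0.00151) with DOX+IL-17A, called under every setting and left-out library run, and -1.02 ± 0.23 (adjusted p = 0.0061) with DOX. The latter stood at the fold limit and was not called without control replicate 3 or DOX replicate 1, 3 or 4, where it was at smallest -0.87. Its partner Itga6 was 453, 125 and 168 in control and 135, 94.2, 131 and 101 with DOX, at -0.89 ± 0.33 (adjusted p = 0.0652) with control replicate 1 and -0.34 (adjusted p = 0.279) without it, and was called only without control replicate 3 (-1.27).

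Itgb1, the beta chain shared by the collagen, laminin and fibronectin receptors and the most abundant integrin here, was 1195, 929 and 1068 in control, 988, 941 and 969 with IL-17A, 710.3, 669, 614 and 619 with DOX, and 692, 676 and 765 with DOX+IL-17A. The libraries with DOX formed a tight group below all others. It passed the adjusted p in both comparisons (0.00816 and 0.036), at log2 fold changes of -0.70 ± 0.17 and -0.58 ± 0.18 that are under the fold limit. Itgb5, a partner of Itgav, did not pass (-0.08 ± 0.26, adjusted p = 0.861). Itgav itself, which falls outside the name rule, was 157, 61.3 and 82.7 in control and 42.9, 52.6, 32.4 and 56.3 with DOX, lower at -1.03 ± 0.29 (adjusted p = 0.0211) and called, but not without control replicate 1 (-0.65, adjusted p = 0.0752) or DOX replicate 3. The blood cell and scarce chains, Itgb2, Itgb7, Itga2b, Itga5, Itga7 and Itga8 among them, gave no call.

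Among other adhesion receptors, 2 of 16 tested fell with DOX, none rose and 14 did not pass (median -0.32). For this count and the next 2 in this paragraph, the shares over all genes were 6.18% down and 9.15% up. Beside Itgav these included Cd151, a tetraspanin that binds Itga3, which fell from 188 ± 15.7 to 87.5 ± 10.4 (-1.10 ± 0.19, adjusted p = 0.00128) and kept its call without each library in turn. Of 30 cytoplasmic proteins of integrin adhesions 3 fell, none rose and 27 did not pass, with a median of 0.06. The 3 were Plec (-1.03, adjusted p = 0.0211) and Dst (-1.14, adjusted p = 0.00702), which tie hemidesmosomes to keratin, and Tns4 (-1.12, adjusted p = 0.00964). Dst and Tns4 lost their calls without control replicate 1 (-0.96 and -0.80), and Plec without control replicate 1 or 5 or DOX replicate 1 or 2 (at smallest -0.89). Of 13 tested epithelial markers 2 fell with DOX, none rose and 11 did not pass (median -0.69). The 2 were the keratin Krt19 and Epcam, at -2.08 and -1.50 (adjusted p = 0.000106 and 0.000385), and whether their fall and that of the integrins are linked was not tested.

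**Figure D2:**
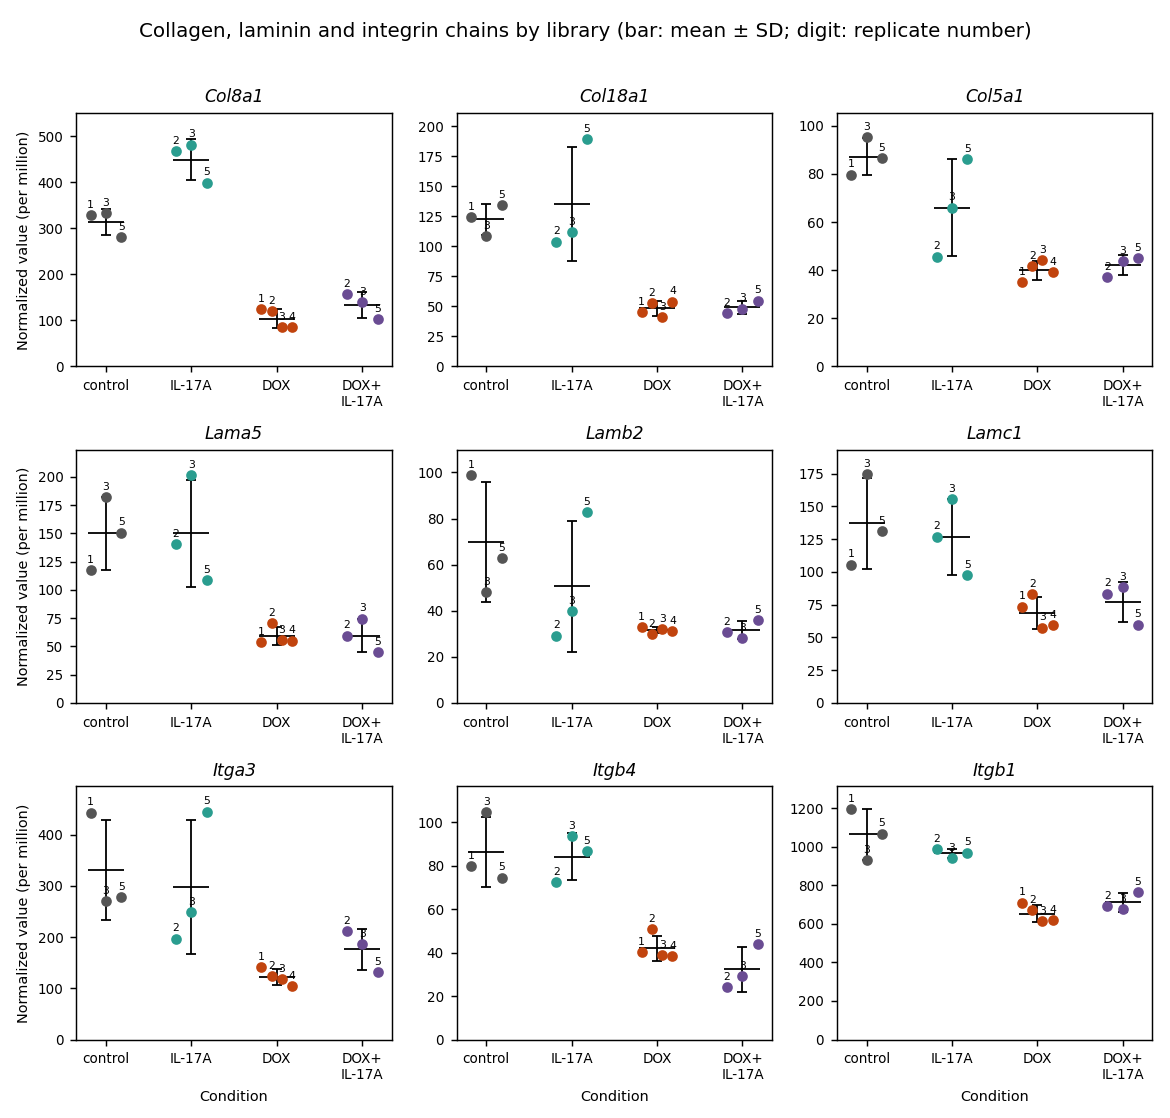
Normalized values (vertical axis, TMM scale) of 9 collagen, laminin and integrin genes in each library of the 4 conditions (horizontal axis); points are libraries with their replicate numbers, and bars show mean ± SD. In each panel the DOX libraries lie below the control libraries, for example 85.1 to 124 against 280.4 to 332 for Col8a1.

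The promoters of the MMP genes were compared with those of the other members. Of the members, 46 had a promoter window in RefSeq's mouse annotation (GRCm38.p6, 250 bases before to 50 after the start of the gene), and each was searched for the AP-1 element TGANTCA, which reads the same on both strands. The element was present in 5 of 7 MMP genes with a window, in 1 of 20 collagens (Col6a1), in 1 of 11 integrins (Itga3) and in none of 5 laminins or 3 TIMPs. Mmp9, Mmp2 and Mmp19 had no window and were not searched. Over all 27025 genes with a window the share was 8.97%. The 5 MMP genes are neighbours on chromosome 9, within chr9:7272514-7510240, and their windows are shown because they hold the element at a similar distance, starting 35 to 93 bases before the start. Capitals mark the element, and all sequences are written 5′ to 3′ on the strand of the gene. They are chr9:7272264-7272563 (plus strand) for Mmp13, chr9:7347124-7347423 (plus) for the second of 2 starts of Mmp12, chr9:7387977-7388276 (minus) for Mmp1b, chr9:7445572-7445871 (plus) for Mmp3 and chr9:7502092-7502391 (plus) for Mmp10.
Mmp13: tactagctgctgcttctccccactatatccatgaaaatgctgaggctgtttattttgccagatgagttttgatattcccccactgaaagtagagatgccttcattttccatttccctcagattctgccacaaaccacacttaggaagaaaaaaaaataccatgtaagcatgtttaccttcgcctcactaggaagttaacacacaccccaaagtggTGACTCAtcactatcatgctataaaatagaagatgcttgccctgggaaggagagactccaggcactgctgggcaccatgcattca
Mmp12: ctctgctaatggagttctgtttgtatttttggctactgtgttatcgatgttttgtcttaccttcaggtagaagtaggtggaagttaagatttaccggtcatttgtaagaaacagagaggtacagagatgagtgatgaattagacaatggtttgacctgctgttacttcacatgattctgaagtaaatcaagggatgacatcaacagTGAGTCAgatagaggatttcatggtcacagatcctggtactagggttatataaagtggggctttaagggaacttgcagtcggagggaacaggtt
Mmp1b: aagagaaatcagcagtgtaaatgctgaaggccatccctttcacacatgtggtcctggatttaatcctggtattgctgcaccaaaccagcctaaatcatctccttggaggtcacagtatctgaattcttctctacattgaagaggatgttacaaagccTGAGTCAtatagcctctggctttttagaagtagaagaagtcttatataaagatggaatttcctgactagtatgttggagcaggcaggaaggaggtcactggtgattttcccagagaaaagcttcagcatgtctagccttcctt
Mmp3: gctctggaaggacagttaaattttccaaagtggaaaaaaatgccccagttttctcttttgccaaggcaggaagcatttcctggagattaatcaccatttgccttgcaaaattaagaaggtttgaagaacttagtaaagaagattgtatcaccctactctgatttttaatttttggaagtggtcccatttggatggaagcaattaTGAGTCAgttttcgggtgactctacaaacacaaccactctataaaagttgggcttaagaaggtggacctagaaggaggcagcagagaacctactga
Mmp10: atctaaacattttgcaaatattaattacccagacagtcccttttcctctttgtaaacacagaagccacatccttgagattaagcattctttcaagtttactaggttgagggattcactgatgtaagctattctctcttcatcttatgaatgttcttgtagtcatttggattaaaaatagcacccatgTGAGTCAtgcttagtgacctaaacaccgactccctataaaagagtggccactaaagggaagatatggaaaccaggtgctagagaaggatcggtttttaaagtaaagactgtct

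A match of these letters is a description of the sequence and not a binding site. The windows of Mmp14 and Mmp15, MMPs on other chromosomes, held none. The 5 neighbours did not move as one group. Mmp13, a collagenase, was 1.01, 10.8 and 13.4 in control, 21.2, 4.24 and 5.50 with IL-17A, 7.16, 11.4, 5.87 and 5.81 with DOX, and 18.8, 37.1 and 31.0 with DOX+IL-17A. All DOX+IL-17A libraries were above all DOX and control libraries, and IL-17A replicate 2 was above the lowest of them. Against control the rise was 2.04 ± 0.65 (adjusted p = 0.0412) with control replicate 1 and 1.14 (adjusted p = 0.118) without it. It was also not called without any DOX+IL-17A library or DOX replicate 1, 3 or 4 (adjusted p up to 0.129). With DOX alone the value was 0.24 ± 0.61 (adjusted p = 0.805).

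Mmp10 and Mmp3, which encode stromelysins, were highest on average with DOX+IL-17A but overlapped with control. Mmp10 was 13.2, 3.23 and 3.42 in control, 13.9, 7.12, 6.43 and 8.49 with DOX and 24.5, 19.3 and 7.99 with DOX+IL-17A, at 1.38 ± 0.57 (adjusted p = 0.104) for the latter against control. Without control replicate 1 it was called (1.95, adjusted p = 0.0168). Mmp3 was 89.2, 41.1 and 52.5 in control, 53.1, 50.4, 22.5 and 28.5 with DOX and 68.5, 71.2 and 53.4 with DOX+IL-17A, with no call. Mmp1b, at 0, 0.913 and 0.943 in control and 1.85, 4.49, 3.08 and 1.25 with DOX, was the only MMP called with DOX (1.16 ± 0.40, adjusted p = 0.0491). That call held only when DOX replicate 4 or DOX+IL-17A replicate 5 was the library left out (adjusted p up to 0.174 otherwise). At most 0.943 in libraries without DOX, Mmp1b passed the low-read filter through those with DOX, so its call is a description and not a test. Exons of Mmp1b and Mmp12 overlap on opposite strands, and the strand setting of the counting is not given in the sources used here. Their reads therefore cannot be told apart with certainty, and Mmp1b also has a close copy, Mmp1a. Col10a1, Col15a1, Col4a3, Col5a1, Lama2 and Itgb4, also called, have exons that overlap genes on the opposite strand. The same limit holds for them.

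Mmp9, a gelatinase that cuts type IV collagen (chr2:164940780-164955850), was the most abundant MMP. It was 84.8, 349.9 and 444 in control, 421, 606 and 483 with IL-17A, 396, 461, 636 and 859 with DOX, and 499, 1059 and 1405 with DOX+IL-17A. All libraries of DOX+IL-17A exceeded those of control but spread widely. The rise was 1.93 ± 0.50 (adjusted p = 0.0166) with DOX+IL-17A and 1.25 ± 0.47 (adjusted p = 0.0699) with DOX, the latter called only without control replicate 3 or 5 (1.7 at largest). Without control replicate 1 these became 1.20 (adjusted p = 0.0277) and 0.51 (adjusted p = 0.305), and the call with DOX+IL-17A was lost without DOX+IL-17A replicate 3 or 5 (adjusted p up to 0.0648).

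Mmp14, a membrane-bound MMP that activates Mmp2 (chr14:54431612-54445364), went the other way. It was 194, 239.8 and 165 in control, 246, 176 and 136 with IL-17A, 209, 173, 151 and 143 with DOX, and 94.7, 96.6 and 88.4 with DOX+IL-17A. The 3 DOX+IL-17A libraries were close to each other and below all 10 others. The fall was -1.07 ± 0.23 (adjusted p = 0.0061) against control, at -0.93 and not called without control replicate 3. With DOX alone the value was -0.24 ± 0.22 (adjusted p = 0.452). The other MMPs, Mmp2, Mmp12, Mmp15 and Mmp19, stayed at or below 6.13 in every library and were not called.

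Timp1, a secreted inhibitor of most MMPs, was 55.7, 42.1 and 41.8 in control, 41.7, 41.2 and 53.3 with IL-17A, 54.4, 54.6, 72.4 and 66.9 with DOX, and 98.8, 105 and 121 with DOX+IL-17A. Every DOX+IL-17A library was above every other library. Against control the rise was 1.21 ± 0.21 (adjusted p = 0.00176) and against IL-17A 1.24 ± 0.21 (adjusted p = 0.00232), both called under every setting and left-out library run. With DOX alone the value was 0.41 ± 0.20 (adjusted p = 0.149). Timp2, the most abundant of the 64 members, was 1926, 645 and 848 in control and 1014, 838, 559 and 564 with DOX, at -0.50 ± 0.33 (adjusted p = 0.291) with control replicate 1 and -0.04 (adjusted p = 0.936) without it. Timp3 was at or below 3.81 in all libraries and was not called.

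**Figure D3:**
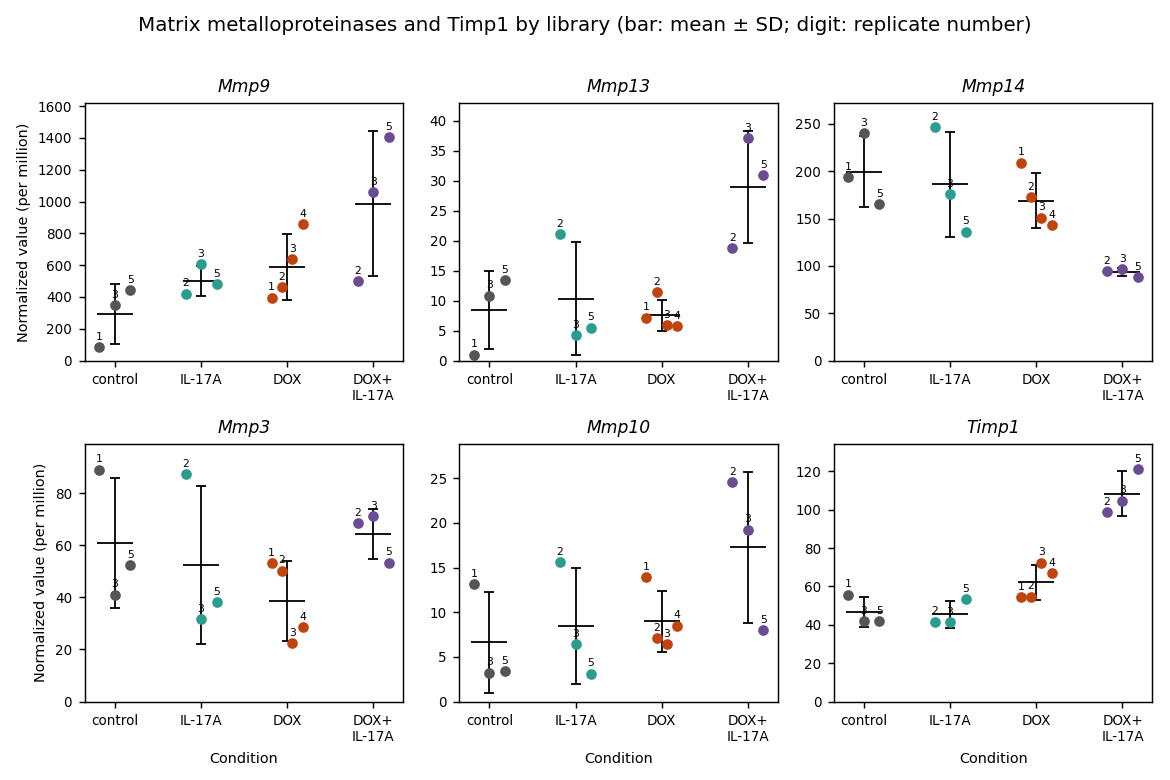
Normalized values (vertical axis, TMM scale) of 5 MMP genes and Timp1 in each library of the 4 conditions (horizontal axis); points are libraries with their replicate numbers, and bars show mean ± SD. Timp1 (98.8 to 121) and Mmp13 (18.8 to 37.1) are higher and Mmp14 (88.4 to 96.6) is lower in all DOX+IL-17A libraries than in all control and DOX libraries.

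Adding IL-17A to DOX gave no called member (0 of 59), where 0.438% of all genes were called. At an unadjusted p under 0.05 there were 6 members and 782 of all 12319 genes. DESeq2, voom with limma and edgeR also called none, with 4, 5 and 4 members at an unadjusted p under 0.05. In a fit of the DOX and DOX+IL-17A libraries alone Mmp13 was called (1 of 59). The members with the smallest p were Timp1 (0.80 ± 0.20, adjusted p = 0.149) and Mmp14 (-0.84 ± 0.22, adjusted p = 0.181). They were followed by Itga2, a chain of a collagen receptor (1.14 ± 0.33, adjusted p = 0.254), and Mmp13 (1.80 ± 0.61, adjusted p = 0.436). Over all alternatives the adjusted p ranged from 0.0179 to 0.395 for Timp1, from 0.0304 to 0.460 for Mmp14, from 0.0738 to 0.771 for Itga2 and from 0.0175 to 0.860 for Mmp13. Where Timp1 or Mmp14 passed the adjusted p in an alternative, the fold change was not above 2, so neither was called. Itga2 was 17.1, 9.85, 7.83 and 12.6 with DOX and 23.1, 37.7 and 20.8 with DOX+IL-17A, with 27.7, 13.6 and 27.0 in control, so that the DOX+IL-17A libraries lay above the DOX libraries, and replicate 3 also above every control library.

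The libraries of DOX and DOX+IL-17A did not overlap in 10 members, 7 of them higher and 3 lower with IL-17A, where 10.3% of all genes did not overlap. By family, the median log2 fold change was 0.57 for the 10 MMPs, 0.14 for integrins, 0.11 for collagens, 0.06 for laminins and -0.04 for the 3 TIMPs, against -0.03 over all genes.

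IL-17A alone also gave no called member (0 of 59), and 0.00812% of all genes were called, with 2 members and 380 of all genes at an unadjusted p under 0.05. DESeq2, voom and edgeR called no member here either, with 5, 3 and 3 at an unadjusted p under 0.05. The 2 members at an unadjusted p under 0.05 in limma were Col8a1 and Col5a2 (adjusted p = 0.959 for both). Col8a1 was at 0.52 ± 0.22, its IL-17A libraries (399 to 482) all above control (280.4 to 332), and Col5a2 was at -1.36 ± 0.52. Control replicate 1 held 8.46 units of Col5a2 and the other control libraries at most 1.1, and without that library the value was -0.61. The IL-17A effect with DOX minus that without it was not called for any member or any gene by limma (0.0%). It had an unadjusted p under 0.05 for 556 of all genes and 4 members, Timp1 (0.83 ± 0.29), Mmp14 (-0.71 ± 0.32), Itga2 (1.36 ± 0.48) and Itgb3 (1.69 ± 0.66), each at an adjusted p of 0.901. DESeq2 called 18 genes in this comparison and voom and edgeR 0, none of them a member, with 5, 5 and 4 members at an unadjusted p under 0.05.

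DOX+IL-17A against IL-17A, which shares no library with DOX against control, measures the DOX effect in cells that also received IL-17A. Of the 59 members 3 rose and 5 fell, where 4.92% of all genes rose and 4.92% fell. Scaled by library size only, 4 members rose and 4 fell, with 1017 genes up and 381 down. Col8a1 fell by 1.76 ± 0.22 (adjusted p = 0.000232) on the log2 scale, Col18a1 by 1.39 ± 0.24 (adjusted p = 0.00205), Itgb4 by 1.39 ± 0.24 (adjusted p = 0.00261) and Lama5 by 1.3 ± 0.26 (adjusted p = 0.00545). These 4, all also called down in DOX against control, were called under every setting and left-out library run, as was the rise of Timp1. Col16a1 fell by 1.15 ± 0.3 (adjusted p = 0.0189), a call lost without DOX+IL-17A replicate 2 or 3 or IL-17A replicate 3 or 5 (adjusted p up to 0.0767). Lama2 rose by 1.31 (adjusted p = 0.0354), but not without DOX+IL-17A replicate 3 or 5 or any IL-17A library (adjusted p up to 0.122). Col15a1 rose by 1.44 (adjusted p = 0.0399), lost without control replicate 5, DOX replicate 2 or 3, DOX+IL-17A replicate 2 or 5 or any IL-17A library (adjusted p up to 0.139). Lama2 and Col15a1 passed the low-read filter through libraries with DOX alone, so their calls here are descriptions.

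Without control replicate 1, which takes no direct part in this comparison but enters the estimate of the spread, 8 members rose and 5 fell. Mmp14 passed the adjusted p (0.0157) at -0.95 ± 0.23, short of the fold limit, which it reached without IL-17A replicate 5 (-1.15). Itga3 had a log2 fold change of -0.69 ± 0.29 (adjusted p = 0.128), and its IL-17A libraries ran from 197 to 445.

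Of 24 tested genes for other matrix proteases and their inhibitors, 3 rose with DOX, 3 fell and 18 did not pass (median 0.07), beside 9.15% and 6.18% of all genes. Serpinb2, an inhibitor of plasminogen activators, rose from 0.122 ± 0.211 to 7.48 ± 2.26 (2.89 ± 0.33 on the log2(value + 1) scale, adjusted p = 4.51e-05), called without each library in turn. With so low a control level, Serpinb2 passed the low-read filter through libraries with DOX, so its call is a description and not a test. Adamts4, a protease of proteoglycans, was 7.44, 8.10 and 8.84 in control, 17.3, 20.9, 18.3 and 16.4 with DOX and 30.5, 39.4 and 32.7 with DOX+IL-17A. These ranges did not overlap, and the rises were 1.07 ± 0.26 (adjusted p = 0.00851) and 1.94 ± 0.27 (adjusted p = 0.000416). Adam10, Htra1 and Furin fell by 1.21, 1.05 and 1.08 on the log2 scale (adjusted p = 0.00727, 0.00137 and 0.0208), and without control replicate 1 Htra1 and Furin were not called (-0.92 and -0.75). Furin was also lost without control replicate 5 or DOX replicate 3.

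Of 27 tested matrix glycoproteins and proteoglycans 1 rose with DOX, 3 fell and 23 did not pass (median -0.46), beside 9.15% up and 6.18% down over all genes. Thbs3, a thrombospondin, rose from 1.80 ± 1.37 to 12.3 ± 3.81 (2.35 ± 0.41, adjusted p = 0.00117). Matn2, Npnt and Ltbp2 fell (-1.51, -1.3 and -1.39, adjusted p = 0.013, 0.0477 and 0.0115). Npnt, a ligand of integrins in basement membrane, was at 390.4 in control replicate 1 and at 86.6 and 96.1 in the others, and its value without that library was -0.60 (adjusted p = 0.199). Its call was also lost without DOX replicate 2, 3 or 4, any DOX+IL-17A library or IL-17A replicate 2 or 3. Ltbp2 without control replicate 1 was -0.92, and Matn2 lost its call without control replicate 5 (adjusted p = 0.0722).

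The 3 genes that match the name rule but encode proteins outside these families were all called with DOX. Itgb1bp1, which binds the tail of Itgb1 and keeps the receptor inactive, rose from 10.5, 19.3 and 16.3 in control to 34.0, 36.2, 43.5 and 46.5 with DOX (1.36 ± 0.25, adjusted p = 0.00185), called without each library in turn. Itgb3bp, a centromere protein, fell by 1.09 ± 0.32 (adjusted p = 0.0242), a call lost without control replicate 5 or DOX replicate 1, 2 or 4 (adjusted p up to 0.0716). Col4a3bp, a ceramide carrier, fell by 1.09 ± 0.24 (adjusted p = 0.00588) but not by 2-fold without control replicate 1 or DOX replicate 3 (at smallest -0.92).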

How the data were processed

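RNA of 4T1-Thy1.1 cells in 13 libraries of 4 conditions was measured by 3' mRNA sequencing (QuantSeq, single 75-base reads). Per the methods and labels, the authors aligned reads to mm10 with STAR, counted them per gene with featureCounts and normalized the counts by TMM. The deposited signal is a TMM-normalized value per gene and library, which the authors tested with voom and limma. The table lists 13223 entries, 1 of them an identical repeat that was dropped, and 17 are named as dates. In every library 100% of the values were, within 0.1 read, whole multiples of what 1 read is worth there, and reads were recovered in this way. Columns of the study's own comparisons (fold changes and p-values) were not used.

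Groups came from the labels. Differences were tested with limma (trend option) on log2(value + 1), fitting condition as the only factor to all libraries, for the 12319 genes that edgeR's filterByExpr kept. Log2 fold changes are on this scale and understate the change of low genes. Calls needed a Benjamini-Hochberg adjusted p under 0.05 and, except for the difference of the IL-17A effects, a fold change above 2. The code was tested on simulated data.

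Each alternative changed a single setting: voom with limma, edgeR's quasi-likelihood test and DESeq2 on recovered reads, scaling by library size, all listed genes, only genes averaging 10 reads or more, 0.1 as the pseudocount, only the groups compared, a replicate block, the adjusted p alone, and each library left out. Leaving out control replicate 1 together with DOX replicate 1 was added after the data were seen. Members named with values are those called in any comparison, the 3 most abundant of each family, collagens whose call or DOX mean depends on DOX replicate 1 and Itgav, with up to 4 called genes of each other list, those with the largest change with DOX; others are named after their values were seen, and some results are not reported here. The members, lists and rules were chosen with earlier results of these data known. Positions come from GENCODE M21 and promoters from RefSeq. Versions were scipy 1.17.1, pandas 2.3.3, numpy 2.4.6, DESeq2 1.42.0, edgeR 4.0.16 and limma 3.58.1, in python 3.11.15 and R 4.3.3.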

Additional observations from a re-analysis of the deposited data

Results flagged for a closer look

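Among the 31 members examined, 2 had a DOX library whose gap to its nearest neighbour was large against the range of the 4 DOX libraries. For Itgb4 and for Lama5, DOX replicate 2 was the highest library of the group (50.7 against 38.5 to 40.2, and 70.9 against 53.8 to 55.8), and the gap was 0.86 and 0.887 of the range, above Dixon's 95% critical value for 4 samples. Chance alone passes that value in about 1 of 20 groups. In both genes this library stayed below every control library. The other groups held 3 libraries each and were not examined in this way.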

How the results depend on the processing

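No called value of a member changed direction in any setting. Of 36 calls, counted as a member in a comparison, 14 held in every setting and with every library left out: Col8a1, Col18a1 and Lama5 in all 3 comparisons with a DOX effect, Itgb4 and Timp1 in both of those with DOX+IL-17A, and Itga3 in DOX against control. For DOX against control (14 members called) the count was 8 with the replicate block and 6 to 14 with a library left out. For DOX+IL-17A against control (14) it was 7 when only the groups compared were fitted and 9 to 17 with a library left out. For DOX+IL-17A against DOX (0) it was 1 (Mmp13) when only the groups compared were fitted and 0 to 0 with a library left out, and for DOX+IL-17A against IL-17A (8) it was 5 to 13. The lowest and highest counts came without DOX replicate 3 (6), control replicate 5 (9) and control replicate 1 (17 and 13), and without IL-17A replicate 3 (5). Library-size scaling lost 10 of the 36 calls, edgeR 10, voom 8, DESeq2 4 and a pseudocount of 0.1 lost 6. The cause of these differences was not tested.

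Libraries with the same replicate number did not all deviate together. Over 13 pairs across conditions the correlation of their deviations from the group means was -0.175 to 0.491 (mean 0.151), above 0.1 in 8. For 50 pairs with different numbers the mean was -0.037, with 13 above 0.1, and 7 of 13 libraries correlated best with their own number. The samples were not treated as paired in the main fit, and whether the numbers mark libraries handled together was not tested. With the replicate number as a block, DOX raised 3 members and lowered 5, and 14 of the 36 calls were lost. For all genes, the counts behind the shares moved by over 1.5 times in some settings: with only the groups compared from 856 up and 733 down to 305 and 294 for DOX+IL-17A against control. For DOX+IL-17A against DOX (14 up, 40 down) they were 7 and 28 with edgeR, 22 and 71 with DESeq2, 3 and 20 with the lower pseudocount, 22 and 65 with only the groups compared, 6 and 8 with the block, 20 and 65 without both doubted libraries, and between 1 and 22 up and 0 and 66 down with a library left out. IL-17A alone called 1 gene, DESeq2 11 up and 2 down, and the difference of the IL-17A effects 0, DESeq2 18. DOX+IL-17A against IL-17A (606 up, 606 down) fell to 295 and 394 without IL-17A replicate 3. At the depth of these libraries 3 reads equal 0.183 to 0.613 units. Of the 59 tested members 27 had a mean under 10, and none of their calls held in every setting.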
